A study of Rattus norvegicus with 10 samples.

Results

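The 34 genes described here carry glucose into the cell, break it down to lactate and build or mobilise glycogen. They comprise glucose and lactate transporters, the enzymes of glycolysis in their muscle and widely expressed isoforms, and the enzymes of glycogen synthesis and breakdown. All probe sets annotated to a fixed list of these genes were taken, which gave 55 of the 31099 probe sets on the array. Of the 34 genes, 32 had a probe set of their own, and all 32 passed the filter on dim probe sets, so they are among the 18393 features tested. Apart from the array's control probe sets, Gapdh and Pkm were read only by probe sets that are also annotated to a related copy, and are given apart.

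The cells were primary cultures of ventricular cardiomyocytes, the contracting cells of the heart's main chambers, from newborn Lewis rats of 0 to 3 days of age. After a recovery phase, all cultures were kept for 3 days under 1 of 3 conditions. Nonpulsed cultures received no electric stimulation (n = 3 arrays). Pulsed cultures were paced with electric pulses of 1 Hz at 2 V/cm (n = 4). The third group received the same pulses together with 10 µmol/L blebbistatin, an inhibitor of the myosin motor that stops contraction while leaving the electrical stimulus in place (n = 3). The sample titles carry 4 dates, called culture series 1 to 4 here, and RNA of duplicate cultures was pooled for every array. All 3 groups are present in series 2 and 3, whereas series 1 lacks a blebbistatin array and series 4 a nonpulsed one. Series was fitted as a block, so the p-values set each treatment difference against how much such differences vary between culture series, pooled over the 3 groups.

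Glycolysis splits glucose into pyruvate and yields ATP without oxygen, and lactate dehydrogenase and the monocarboxylate transporters then interconvert and move lactate. The newborn heart leans on glycolysis and shifts towards fatty acid oxidation after birth, while heart and skeletal muscle come to express muscle isoforms such as the insulin-responsive transporter Slc2a4, the mutase Pgam2 and the enolase Eno3. Contraction is known to raise glucose uptake and glycogen turnover in muscle, and many genes of glycolysis are known targets of the transcription factor Hif1a at low oxygen.

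Values are the deposited log2 values, and a difference of 1 is a factor of 2. Array medians lay between 6.57 and 6.78. Of 11 cardiomyocyte markers, 10 were tested, and their median log2 value lay between 12.48 and 13.27 on the 10 arrays. Markers of fibroblasts were present too, with medians of 9.04 to 12.48 on the 10 arrays. Of 7 skeletal muscle markers, 5 passed the filter, and Myh4 and Myod1 were below it. The median of the 5 was only 6.19 to 6.84 on the 10 arrays, near the array medians. Myh1 and Ckm were far brighter than that median, with group means of 12.34 to 12.50 and 11.03 to 12.33. In RNA of whole cultures, fewer cells of a type and less RNA per cell cannot be told apart. The nonpulsed array of series 1 stood apart for the glucose genes: it had the lowest value of the 10 arrays in 18 of 32 genes, against 23.6% of all features. Its partner, the pulsed array of series 1, had the highest value in 14 of 32, against 14.3% of all features. Results that rest on series 1 are therefore given with and without it.

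Promoter sequences were at hand from RefSeq for 32 of the 34 genes (assembly GRCr8), with 36 annotated starts, and not for Slc2a4 and Pgk1. The 250 bases before the start are shown for Pgam2, which had the largest difference of the 32 genes between pulsed or blebbistatin cultures and nonpulsed ones and came after Aldoc between blebbistatin and pulsed cultures, for its widely expressed partner Pgam1, and for Aldoc and Slc2a1, which had the next largest differences after pulsing. They lie at chr14:84897875-84898124 on the minus strand for Pgam2, chr1:250672902-250673151 on the plus strand for Pgam1, chr10:63715294-63715543 on the plus strand for Aldoc and chr5:138002272-138002521 on the plus strand for Slc2a1. Each is written 5′ to 3′ on the gene's strand, and capitals mark ACGTG on either strand, the core letters of the element that Hif1a binds.

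Pgam2: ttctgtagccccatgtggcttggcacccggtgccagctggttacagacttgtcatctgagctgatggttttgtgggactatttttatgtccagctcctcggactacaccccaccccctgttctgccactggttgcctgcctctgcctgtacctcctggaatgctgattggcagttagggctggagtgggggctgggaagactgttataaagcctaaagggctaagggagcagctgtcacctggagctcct
Pgam1: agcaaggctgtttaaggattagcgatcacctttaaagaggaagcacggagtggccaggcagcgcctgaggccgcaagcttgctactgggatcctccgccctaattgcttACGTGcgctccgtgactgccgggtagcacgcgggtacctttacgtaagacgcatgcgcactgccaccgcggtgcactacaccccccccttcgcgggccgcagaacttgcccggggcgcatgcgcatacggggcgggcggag
Aldoc: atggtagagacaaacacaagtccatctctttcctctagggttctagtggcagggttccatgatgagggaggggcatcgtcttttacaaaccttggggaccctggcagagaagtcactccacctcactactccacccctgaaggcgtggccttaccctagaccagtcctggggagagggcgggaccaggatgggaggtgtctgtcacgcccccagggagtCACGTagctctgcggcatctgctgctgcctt
Slc2a1: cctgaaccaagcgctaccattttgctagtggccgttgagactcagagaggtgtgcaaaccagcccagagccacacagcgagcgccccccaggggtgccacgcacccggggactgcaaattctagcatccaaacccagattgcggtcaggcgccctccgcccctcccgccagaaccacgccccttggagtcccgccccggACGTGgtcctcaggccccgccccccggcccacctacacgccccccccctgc

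The promoters of Pgam1, Aldoc and Slc2a1 each held 1 match and that of Pgam2 held 0. Among all 36 promoters of these genes, 17 (47.2%) held ACGTG on either strand, against 16.6% of the 33469 rat promoters of the same length. The longer word CACGTG, which contains ACGTG, was found in 3 (8.33%), against 5.59% of all. The E-box word CANNTG, which CACGTG also matches, was found in 21 (58.3%), against 65.5% of all. The median GC content of these promoters was 58.8%, against 51.2% of all, and its part in the share with ACGTG was not tested. A match describes the letters in this window only.

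Pulsed cultures were compared with nonpulsed cultures to see what electric stimulation, and the beating it drives, does to these genes. All 32 fitted differences were above 0 and 0 below, against 62% and 38% of all features; they ran from 0.01 to 1.02, with a median of 0.31 against 0.05 over all features tested, and 30 of 32 stayed above 0 after quantile normalization or median centring (Pfkfb1 and Pgam1 did not), against 47.6% and 44.1% of all features. Pgam2, Aldoc, Slc2a1, Pygm, Slc2a4 and Slc16a3 had the largest differences. None of the 32 passed the test in limma after Benjamini-Hochberg adjustment over all features, and neither did any other feature (0 of 18393, 0%). At an unadjusted p under 0.05 were 8 of the 32 genes, against 9.1% of all features: 8 were higher, against 7.83%, and 0 were lower, against 1.27%. Those 8 were Slc2a1, Pfkfb2, Aldoa, Pgam2, Ldhb, Slc16a1, Pygm and Pygb. Among all features at that threshold, 86% were higher, but 62.8% after quantile normalization and 55.5% after median centring, under which 5 and 4 of the 32 genes and 5.35% and 4.69% of all features were higher at that threshold.

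The size of the shift rested on series 1. The median difference of the 32 genes was 0.81 within series 1, 0.06 within series 2 and 0.08 within series 3, where the medians over all features were 0.11, 0.03 and 0.03. The pulsed array was the higher in 31, 21 and 25 of the 32 genes in series 1, 2 and 3 (96.9%, 65.6% and 78.1%), against 63.8%, 56.4% and 57.1% of all features. Without series 1, the fitted median was 0.08, against 0.03 over all features, and 20 of 32 differences were above 0, against 57.4%. At an unadjusted p under 0.05 were then 2 of the 32 genes and 885 of the 18393 features, so these counts lay near the background. Pulsed arrays were higher in every series in 18 genes, against 24.7% of all features, and lower in every series in 0, against 9.67%. In 9 genes the lowest pulsed array lay above the highest nonpulsed array, against 6.3% of all features (Slc2a1, Gpi, Pfkm, Aldoc, Pgam2, Ldhb, Slc16a1, Pygm and Pygb), and in 0 the reverse held, against 1.04%.

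**Figure D1:**
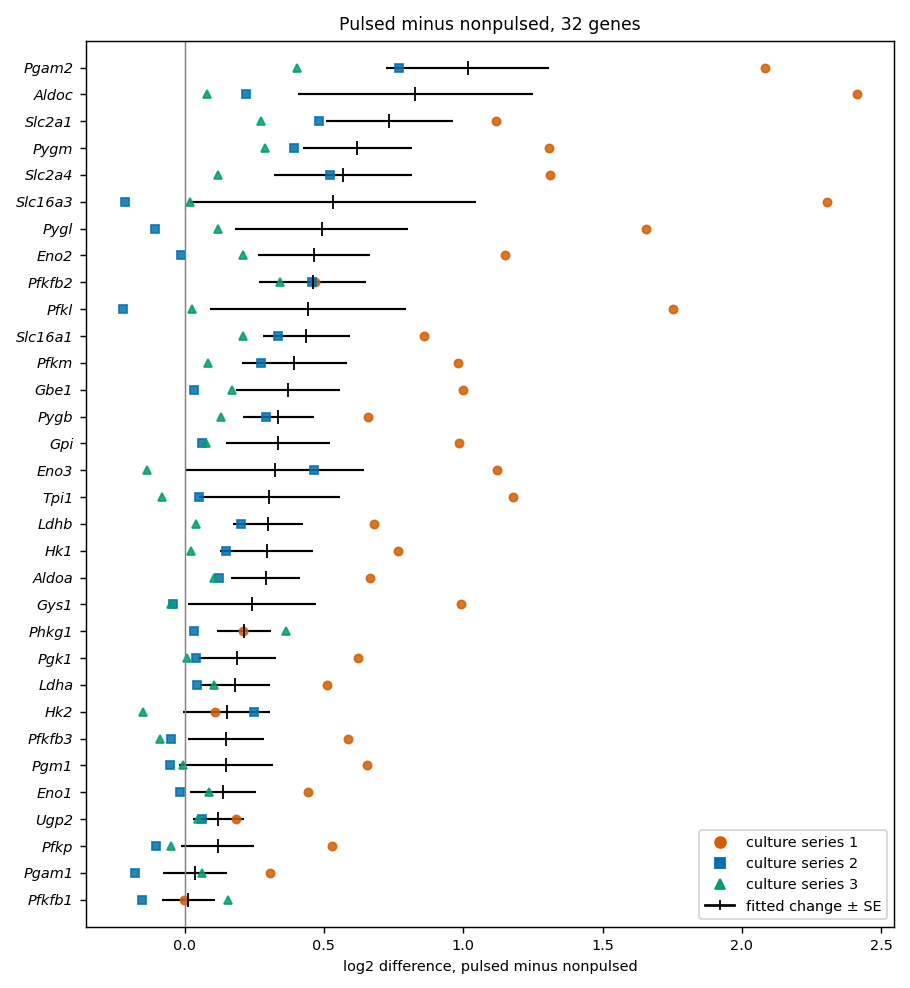
Difference of pulsed from nonpulsed cultures on the log2 scale (x axis) for the 32 genes with a probe set of their own (y axis). Coloured points are the differences within culture series 1, 2 and 3, and black marks are the fitted differences ± SE; the points of series 1 lie farthest to the right for most genes, with a median of 0.81, and those of series 2 and 3 lie near 0.

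Among the transporters, Slc2a1 (GLUT1) admits glucose at a basal rate in nearly all cells. Its log2 values were 9.01, 9.39 and 9.49 on the nonpulsed arrays of series 1, 2 and 3, and 10.13, 9.87, 9.76 and 10.24 on the pulsed arrays of series 1 to 4. Every pulsed array lay above every nonpulsed array, and the nonpulsed array of series 1 was the lowest. The fitted difference was 0.74 ± 0.23 (SE; limma, adjusted p = 0.495), and it was 0.56 without series 1. Slc2a4 (GLUT4), the transporter that insulin and contraction bring to the muscle cell surface, read 7.65, 8.36 and 8.89 without pulses and 8.97, 8.89, 9.01 and 9.16 with them. The pulsed array was higher in all 3 series, but the groups touched at 8.89, and the nonpulsed arrays spread over more than 1 log2 unit. The fitted difference of Slc2a4 was 0.57 ± 0.25 (SE; adjusted p = 0.553), and 0.23 without series 1.

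Pgam2, the muscle form of phosphoglycerate mutase, which moves the phosphate of 3-phosphoglycerate before the enolase step, had the largest difference of the 32. Nonpulsed arrays read 6.66, 7.14 and 7.74, and pulsed arrays 8.74, 7.91, 8.15 and 8.19. The groups did not overlap, and the pulsed arrays differed less among themselves than the nonpulsed ones (SD 0.35 and 0.55). The fitted difference was 1.02 ± 0.29 (SE), a factor of 2.02, with within-series differences of 2.08, 0.77 and 0.40. It was larger than that of 99.9% of all features but did not pass (adjusted p = 0.495), and without series 1 it was 0.53.

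Aldoc, the aldolase of brain and fetal tissue, split 1 pulsed array from all others. It read 7.34, 7.56 and 7.49 on nonpulsed arrays, and 9.76, 7.78, 7.57 and 7.84 on pulsed arrays. The pulsed array of series 1 lay far above all other arrays, and the other pulsed arrays lay just above the nonpulsed ones. Its fitted difference of 0.83 ± 0.42 (SE; adjusted p = 0.590) was 0.10 without series 1. The same array was also the highest for Slc16a3 (MCT4), the transporter that exports lactate from glycolytic cells. Slc16a3 read 8.08, 9.20 and 8.66 without pulses, and 10.38, 8.98, 8.69 and 8.33 with them. The groups overlapped, and the fitted difference of 0.53 ± 0.51 (SE; adjusted p = 0.766) became -0.28 without series 1. Pfkl, the liver-type phosphofructokinase, and Pygl, the liver glycogen phosphorylase, had the same shape, with differences of 1.75 and 1.66 in series 1, -0.22 and -0.11 in series 2, and 0.03 and 0.12 in series 3.

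Pygm, the muscle glycogen phosphorylase that releases glucose 1-phosphate from glycogen, read 9.70, 10.71 and 10.67 on nonpulsed arrays, and 11.01, 11.11, 10.96 and 11.10 on pulsed arrays. All pulsed arrays lay above all nonpulsed arrays, and they differed little among themselves (SD 0.07, n = 4). The fitted difference was 0.62 ± 0.20 (SE; adjusted p = 0.495), and 0.30 without series 1. The brain form Pygb differed by 0.34 ± 0.13 (SE), again without overlap, with within-series differences of 0.66, 0.29 and 0.13. The enzymes that build glycogen differed less: 0.37 for the branching enzyme Gbe1, 0.24 for the synthase Gys1, 0.15 for Pgm1, which interconverts glucose 1-phosphate and glucose 6-phosphate, and 0.12 for Ugp2, which makes UDP-glucose. Phkg1, the catalytic subunit of muscle phosphorylase kinase, differed by 0.21 and was the dimmest of the genes by its own probe set, with array values of 5.12 to 5.97.

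The remaining glycolytic genes differed by 0.01 to 0.46. At the entry step, the hexokinases Hk1 and Hk2, which trap glucose as glucose 6-phosphate, differed by 0.29 and 0.15. Gpi, which makes fructose 6-phosphate, differed by 0.33, with 0.99 in series 1, 0.06 in series 2 and 0.08 in series 3. Of the phosphofructokinases, which commit sugar to glycolysis, the muscle form Pfkm differed by 0.39 and the platelet form Pfkp by 0.12. Of the enzymes that make or remove their activator fructose 2,6-bisphosphate, Pfkfb2, the heart form, differed by 0.46 with like differences in each series (0.47, 0.46 and 0.34), and Pfkfb3 and Pfkfb1 by 0.15 and 0.01. Further down the path, the fitted differences were 0.29 for the muscle aldolase Aldoa, 0.30 for Tpi1, 0.19 for Pgk1 and 0.04 for Pgam1. They were 0.14, 0.46 and 0.32 for the enolases Eno1, Eno2 and Eno3. The lactate dehydrogenase subunits Ldha and Ldhb differed by 0.18 and 0.30, and Slc16a1 (MCT1), which carries lactate into oxidative cells, by 0.44, with 0.86, 0.34 and 0.21 in series 1, 2 and 3.

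**Figure D2:**
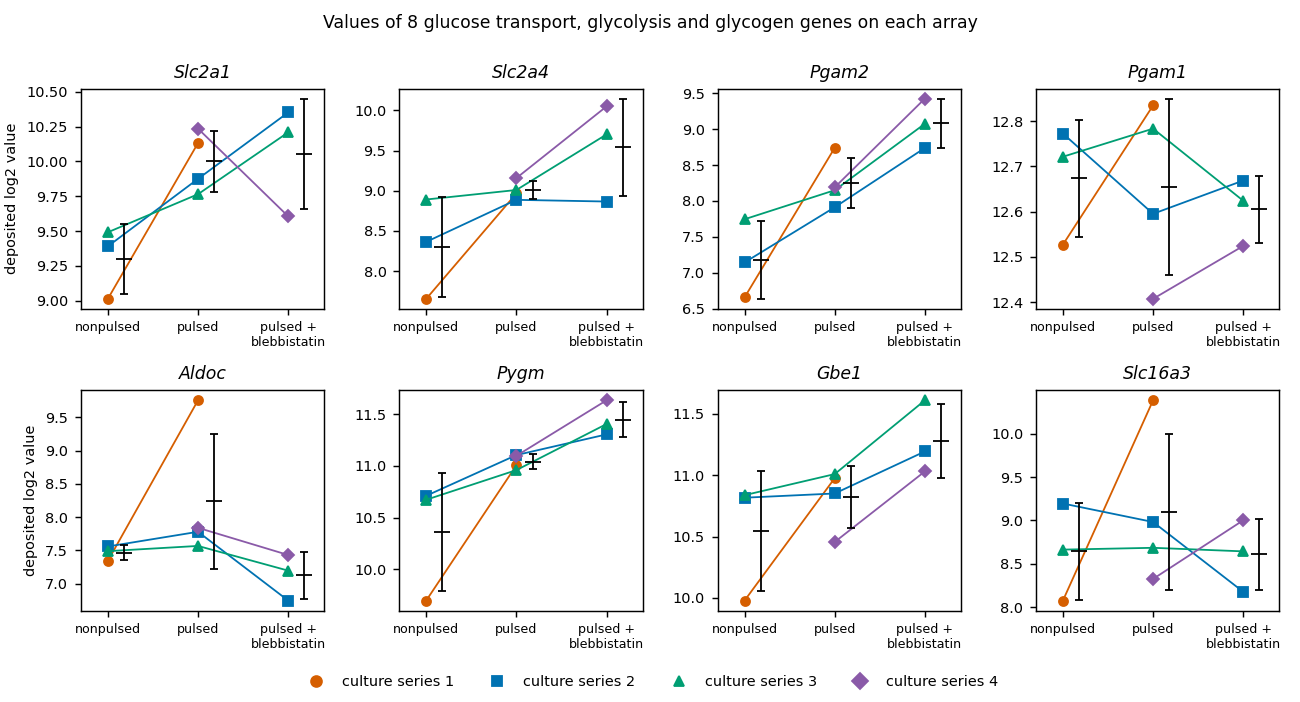
Deposited log2 value (y axis) of 8 genes on every array by group (x axis); coloured lines join the arrays of a culture series and black marks are the group mean ± SD (n = 3 nonpulsed, 4 pulsed, 3 pulsed with blebbistatin). Pgam2 increases from group to group in each series, from 6.66 on the lowest array to 9.43 on the highest, while Aldoc and Slc16a3 are set apart by the pulsed array of series 1 and Pgam1 stays between 12.41 and 12.83.

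Muscle and other isoforms were then compared within each array. The log2 ratio of 2 isoforms' probe sets has no absolute meaning, since probe sets differ in brightness, but its change between arrays shows unequal change. Of 14 pairs compared, 4 moved the same way in all 3 series after pulsing, and none of these could pass an exact sign-flip permutation test, whose smallest two-sided p with 3 series is 0.25 (lowest Benjamini-Hochberg value over the 14 pairs, 0.778). With random signs a ratio moves alike in 3 series at that same rate of 0.25, so 4 of 14 lay near it. The log2 ratio of Pgam2 to Pgam1 was -5.87, -5.63 and -4.98 on nonpulsed arrays, and -4.09, -4.68, -4.63 and -4.22 on pulsed arrays. It was higher with pulses in each series and the groups did not overlap, with a mean change of 1.02 ± 0.72 (SD, n = 3 series), made up of 1.78, 0.95 and 0.34. The ratio of Pfkm to Pfkp was -1.25, -1.26 and -1.27 without pulses, and -0.80, -0.89, -1.14 and -0.19 with them. Here too the groups did not overlap, and the change was 0.32 ± 0.17 (SD).

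Pygm relative to Pygb read -0.46, 0.21 and 0.25 on nonpulsed arrays, and 0.19, 0.31, 0.41 and -0.15 on pulsed arrays. This ratio overlapped between the groups across series, although it was higher with pulses within each, by 0.30 ± 0.30 (SD). Eno2, the neuronal enolase, relative to the widely expressed Eno1 read -3.59, -4.31 and -3.95 on nonpulsed arrays and -2.88, -4.30, -3.84 and -3.25 on pulsed arrays. Its change of 0.28 ± 0.38 (SD) came almost wholly from series 1 (0.71, against 0.01 and 0.12). For the pair most tied to muscle glucose uptake, Slc2a4 to Slc2a1, the change was 0.03 ± 0.17 (SD) and differed in sign between series. The other 9 pairs also differed in sign between series. They include Eno3 to Eno1 (0.31 ± 0.48), Hk2 to Hk1 (-0.24 ± 0.38) and Ldhb to Ldha (0.09 ± 0.13).

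**Figure D3:**
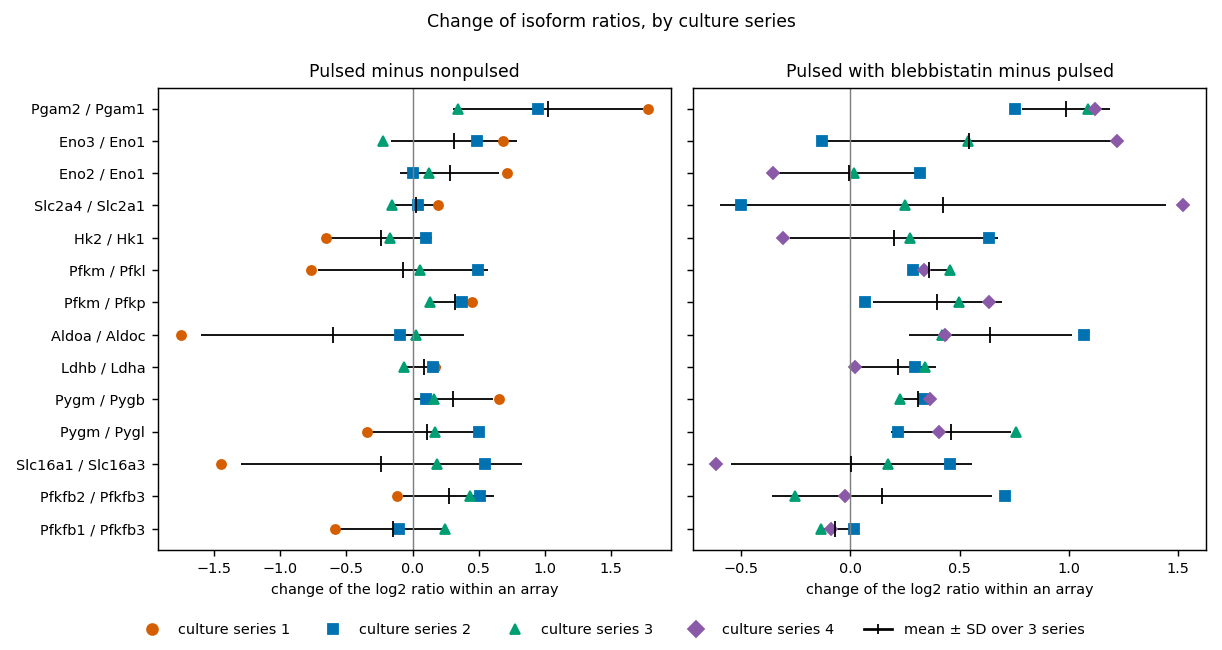
Change of the within-array log2 ratio (x axis) of 14 isoform pairs (y axis) for pulsed against nonpulsed and for blebbistatin against pulsed cultures. Points are culture series and black marks the mean ± SD over 3 series; the ratio of Pgam2 to Pgam1 has the largest mean change in both, 1.02 and 0.99.

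Pulsed cultures with and without blebbistatin were compared to separate the electric stimulus from contraction. The 32 genes did not shift together: 19 fitted differences were above 0, against 55.7% of all features, and 13 below, against 44.3%, with a median of 0.04 against 0.02 over all features and a range of -0.87 to 0.82. Aldoc was lower with blebbistatin and Pgam2, Gbe1, Slc2a4, Hk2 and Eno3 were the genes with the largest differences in the other direction. None of the 32 passed in limma, where 3 of 18393 features did (0.0163%). At an unadjusted p under 0.05, 2 genes were higher (Hk2 and Pgam2), against 6.23% of all features, and 0 were lower, against 5.6%. Blebbistatin arrays were higher in all 3 series in 9 genes, against 24.1% of all features, and lower in all 3 in 3 genes, against 15.1%. The 9 were Gpi, Pfkfb3, Aldoa, Pgam2, Ldhb, Pygm, Gys1, Pgm1 and Gbe1, and the 3 were Pfkp, Aldoc and Phkg1. Within series 2, 3 and 4 the median difference of the 32 genes was -0.01, 0.16 and 0.12, against 0.04, 0.01 and 0.05 over all features.

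Pgam2 read 8.74, 9.08 and 9.43 on the blebbistatin arrays of series 2, 3 and 4, against the pulsed values given above. Each blebbistatin array exceeded its own pulsed partner, by 0.83, 0.93 and 1.24, while the pulsed array of series 1 equalled the lowest of them at 8.74. The fitted difference was 0.82 ± 0.29 (SE; limma, adjusted p = 0.365). Without series 1 it was 1.00, with an adjusted p of 0.055, the lowest of the 32 genes under any alternative in this comparison. Pgam2 was thus higher with pulses and blocked contraction than with pulses alone in each of the 3 series. The difference had the same sign as that of pulses against no pulses, and both comparisons use the pulsed arrays.

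Aldoc read 6.75, 7.20 and 7.43 with blebbistatin, below all 4 pulsed arrays. Within series it was lower by 1.03, 0.37 and 0.41, and the fitted difference was -0.87 ± 0.42 (SE; adjusted p = 0.471), or -0.60 without series 1. This fitted value exceeds most within-series differences because the fit also draws on series 1 and the nonpulsed arrays. Gbe1, which adds branches to glycogen, read 11.19, 11.61 and 11.03 with blebbistatin, and 10.98, 10.85, 11.01 and 10.46 without it. All blebbistatin arrays lay above all pulsed ones, and the fitted difference was 0.40 ± 0.19 (SE; adjusted p = 0.452). Pygm also did not overlap, reading 11.31, 11.41 and 11.64 with blebbistatin, and its fitted difference was 0.28 ± 0.20 (SE). Only in these 3 genes did the groups not overlap: 2 higher with blebbistatin, against 6.34% of all features, and 1 lower, against 3.69%.

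**Figure D4:**
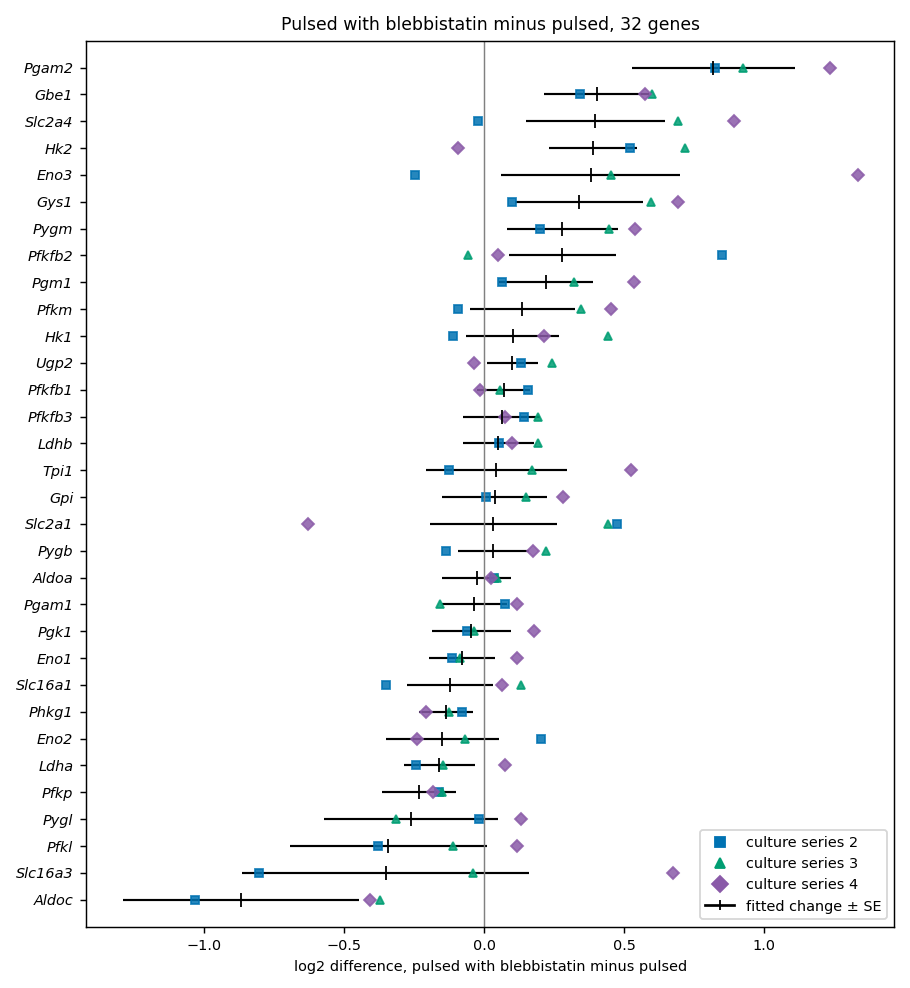
Difference of pulsed cultures with blebbistatin from pulsed cultures on the log2 scale (x axis) for the same 32 genes (y axis). Coloured points are the differences within culture series 2, 3 and 4 and black marks the fitted differences ± SE; they run from -0.87 for Aldoc to 0.82 for Pgam2 on both sides of 0.

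In the other 20 genes the sign differed between series, as shown for Slc2a4, Slc2a1, Hk2 and Eno3. Slc2a4 read 8.86, 9.70 and 10.05 with blebbistatin, which was lower than its pulsed partner by 0.02 in series 2 but higher by 0.69 and 0.89 in series 3 and 4. Its fitted difference was 0.40 ± 0.25 (SE; adjusted p = 0.571). Slc2a1 went the other way in series 4: it read 10.35, 10.21 and 9.61, with differences of 0.48, 0.44 and -0.63 and a fitted difference of 0.03 ± 0.23 (SE). Hk2, the insulin-regulated hexokinase of muscle, read 6.60, 6.42 and 7.20 on nonpulsed arrays, 6.71, 6.67, 7.05 and 7.27 on pulsed arrays, and 7.19, 7.77 and 7.17 with blebbistatin. It was higher with blebbistatin by 0.52 and 0.72 in series 2 and 3 and lower by 0.09 in series 4, with a fitted difference of 0.39 ± 0.16 (SE; adjusted p = 0.401). Eno3, the muscle enolase, read 8.45, 9.17 and 8.67, then 9.57, 9.63, 8.53 and 8.73, then 9.38, 8.98 and 10.07 in the same order of groups. The 3 groups overlapped, and its fitted difference of 0.38 ± 0.32 (SE; adjusted p = 0.678) was -0.06 without series 4.

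Isoform ratios were compared in the same way between pulsed cultures with and without blebbistatin, and 7 of 14 pairs moved the same way in all 3 series, each with the smallest exact two-sided p of 0.25 (Benjamini-Hochberg value 0.5). Random signs move a ratio alike in 3 series at a rate of 0.25. In all 7 the form named first below was the one favoured with blebbistatin. For lactate dehydrogenase this was the heart subunit over the muscle subunit. Pfkm and Pygm enter more than 1 of these pairs, so the 7 are not independent of each other. The ratio of Pgam2 to Pgam1 read -3.93, -3.55 and -3.10 with blebbistatin, above all pulsed and all nonpulsed arrays, and its change of 0.99 ± 0.20 (SD, n = 3 series) had a smaller spread than that after pulsing alone. Aldoa relative to Aldoc read 5.30, 5.32 and 5.45 on nonpulsed arrays, 3.55, 5.22, 5.48 and 5.05 on pulsed arrays, and 6.29, 5.89 and 5.49 with blebbistatin. The blebbistatin arrays were the 3 highest, and the change was 0.64 ± 0.37 (SD). Among the phosphofructokinases, Pfkm to Pfkp read -0.82, -0.65 and 0.44 with blebbistatin, a change of 0.40 ± 0.30 (SD) with the groups overlapping.

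Pfkm relative to Pfkl read 1.08, 1.94 and 2.30 on nonpulsed arrays, 0.31, 2.43, 2.35 and 2.22 on pulsed arrays, and 2.72, 2.81 and 2.56 with blebbistatin. All blebbistatin arrays lay above all others, with a change of 0.36 ± 0.09 (SD). For the glycogen phosphorylases, Pygm to Pygb read 0.65, 0.64 and 0.21 with blebbistatin, a change of 0.31 ± 0.07 (SD), with the array of series 4 within the range of the pulsed ones. Pygm to Pygl read 1.82, 3.28 and 3.21 on nonpulsed arrays, 1.47, 3.78, 3.37 and 3.3 on pulsed arrays, and 4.0, 4.13 and 3.71 with blebbistatin. Its change was 0.46 ± 0.27 (SD), and the pulsed array of series 2 lay above the lowest blebbistatin array. Ldhb, the heart subunit of lactate dehydrogenase, relative to the muscle subunit Ldha read -0.27, -0.097 and -0.0037 without pulses, -0.10, 0.06, -0.07 and 0.30 with pulses, and 0.35, 0.27 and 0.32 with blebbistatin. Its change was 0.22 ± 0.17 (SD), and only the pulsed array of series 4 reached the blebbistatin range.

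The groups farthest apart in treatment were pulsed cultures with blebbistatin and nonpulsed cultures, which share series 2 and 3 only; this comparison shares its arrays with the other 2. Of the 32 fitted differences, 30 were above 0, against 61.4% of all features, and 2 below, Pfkp and Aldoc, against 38.6%. After median centring 25 were above 0, against 48.6% of all features, and after quantile normalization 27, against 51%. The fitted differences had a median of 0.33 against 0.07 over all features. The range was -0.11 to 1.83. None of the 32 passed in limma, where 63 of 18393 features did (0.343%). At an unadjusted p under 0.05 were 10 genes, against 22.6% of all features: 10 were higher, against 15.8%, and 0 were lower, against 6.8%. Of all features at that threshold 70% were higher, but 53.9% after quantile normalization and 49.2% after median centring. The groups did not overlap in 12 genes that were higher with blebbistatin, against 18.1% of all features, and in 0 that were lower, against 6.77%. Those 12 were Slc2a1, Hk1, Gpi, Pfkm, Pfkfb2, Pgam2, Ldhb, Pygm, Pygb, Gys1, Gbe1 and Ugp2. Within series 2 and 3 the median difference was 0.06 and 0.24, against 0.06 and 0.04 over all features. The blebbistatin array was the higher in 20 and 24 of the 32 genes (62.5% and 75%), against 57.9% and 56% of all features. Without series 1, 24 of the 32 fitted differences were above 0, against 59.3% of all features. Their median was then 0.19, against 0.05 over all features.

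Pgam2 again differed most, by 1.83 ± 0.33 (SE), a factor of 3.57, and by 1.60 and 1.33 within series 2 and 3. Its adjusted p was 0.0654, which moved to 0.0499 without the series block, 0.0154 with series as a random block and 0.0363 without series 1, and ranged up to 0.329 over all alternatives. Slc2a4 differed by 0.97 ± 0.28 (SE; adjusted p = 0.118), Pygm by 0.90 ± 0.22 (SE; adjusted p = 0.0949), Gbe1 by 0.77 ± 0.21 (SE; adjusted p = 0.110) and Slc2a1 by 0.77 ± 0.26 (SE; adjusted p = 0.148). Of these, Pygm and Slc2a4 passed with series as a random block (adjusted p of 0.0327 and 0.0495). The fitted values also draw on the arrays of series 1. Within series 2 and 3 the differences were 0.50 and 0.81 for Slc2a4, and 0.59 and 0.73 for Pygm. They were 0.38 and 0.77 for Gbe1, and 0.96 and 0.72 for Slc2a1. Pfkfb2 read 6.39, 5.69 and 6.49 on nonpulsed arrays, 6.86, 6.15, 6.83 and 6.92 on pulsed arrays, and 7.0, 6.77 and 6.97 with blebbistatin. Blebbistatin and nonpulsed arrays did not overlap, and the difference was 0.74 ± 0.22 (SE; adjusted p = 0.121). The difference of Pfkfb2 was 1.31 in series 2 and 0.28 in series 3. Its other probe sets gave 0.48, -0.20 and -0.16 in this comparison. The second probe set of Slc2a4 gave 0.50, and the other probe sets of Pygm gave 0.84 and 0.88.

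In both series that hold these groups, 20 genes were higher with blebbistatin, against 39.1% of all features. A further 8 (25%) were lower in both, against 25.2%, so this count lay at the background. They were Pfkl, Pfkp, Aldoc, Pgk1, Pgam1, Ldha, Slc16a3 and Pygl. These 8 include liver, platelet, brain and widely expressed forms, but also Ldha, the muscle subunit of lactate dehydrogenase. Only Pfkp and Aldoc of the 8 also had a fitted difference below 0, because the fit draws on all arrays. Slc16a3, for example, had a fitted difference of 0.18, but -1.02 and -0.02 within series 2 and 3. In all, 12 of the 14 ratios moved the same way in both series, each towards the form that is named first in the ratio. These first forms are not of 1 kind: Ldhb is the heart subunit, set against the muscle subunit Ldha, and Eno2 is the neuronal enolase. Pfkm, Pygm and Eno1 enter more than 1 ratio, so the 12 are not independent of each other. With 2 series the smallest exact p is 0.5 (Benjamini-Hochberg value 0.583). Random signs move a ratio alike in 2 series at a rate of 0.5, against 0.25 in 3 series. The count of 12 is therefore not comparable with the counts over 3 series. The mean changes were 1.56 ± 0.19 for Pgam2 to Pgam1, 0.82 ± 0.15 for Pygm to Pygl, 0.71 ± 0.37 for Aldoa to Aldoc and 0.65 ± 0.19 for Pfkm to Pfkl (SD, n = 2 series). Those of Pfkm to Pfkp, Pygm to Pygb, Ldhb to Ldha and Eno2 to Eno1 were 0.53, 0.41, 0.36 and 0.23.

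The other 4 such ratios had moved alike in every series neither after pulsing alone nor with blebbistatin against pulses. Pygm to Pygl, Aldoa to Aldoc, Pfkm to Pfkl and Ldhb to Ldha had not moved alike after pulsing alone either. Eno3 to Eno1 read -4.27, -3.75 and -4.16 on nonpulsed arrays, -3.59, -3.27, -4.39 and -3.81 on pulsed arrays, and -3.40, -3.85 and -2.59 with blebbistatin. Its mean change was 0.33 ± 0.03 (SD, n = 2 series), with overlapping groups. Hk2 to Hk1 read -4.05, -4.69 and -3.62, then -4.71, -4.58, -3.79 and -3.79, then -3.95, -3.51 and -4.10, and changed by 0.42 ± 0.45 (SD). These groups overlapped as well. Slc16a1 to Slc16a3 read 2.69, 1.59 and 2.24, then 1.25, 2.14, 2.42 and 2.92, then 2.60, 2.60 and 2.31, a change of 0.68 ± 0.45 (SD). The nonpulsed array of series 1 lay above the blebbistatin arrays, which have no partner in that series. Pfkfb2 to Pfkfb3 read -0.72, -1.26 and -0.48, then -0.84, -0.75, -0.05 and -0.92, then -0.04, -0.31 and -0.95, and its change of 0.70 ± 0.73 (SD) became -0.18 when the probe sets of each gene were averaged.

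Probe sets of the same gene mostly pointed the same way, with a few exceptions. Of the 48 probe sets of these genes that passed the filter, 46 had a fitted difference above 0 with pulses (61.1% of all 23281 probe sets), 28 with blebbistatin against pulses (55.5%) and 42 with blebbistatin against no pulses (61%). The 3 probe sets of Pygm gave 0.62, 0.51 and 0.58 with pulses and 0.28, 0.33 and 0.30 with blebbistatin against pulses. Those of Slc2a4 gave 0.57 and 0.35 with pulses and 0.40 and 0.15 with blebbistatin. Pfkfb2 was less uniform, with 0.46, 0.26, 0.0027 and -0.11 for its 4 probe sets with pulses, and so was Pfkfb3, with 0.90, 0.15 and -0.04. The 0.90 of Pfkfb3 came from series 1, where the difference was 2.4, against 0.22 and 0.14 in series 2 and 3. For Slc16a1 the probe sets gave 0.44 and 0.08, for Hk1 0.29 and 0.03, and for Pfkm 0.39, 0.35 and 0.08. Pgam2, Aldoc, Slc2a1 and Gbe1 are among the 25 genes with 1 probe set, so no second probe set was at hand to compare.

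Gapdh, the dehydrogenase that is often used as a reference gene, and Pkm, the pyruvate kinase of muscle and most other tissues, were read by shared probe sets. The shared Gapdh probe set differed by 0.10 with pulses, -0.03 with blebbistatin against pulses and 0.08 with blebbistatin against no pulses. For Pkm these differences were 0.10, -0.11 and -0.02. The control probe sets of Gapdh, annotated to Gapdh alone, had mean within-series differences of 0.08, 0.12 and 0.14 with pulses. These were 0.13, 0.04 and 0.0032 with blebbistatin against pulses, and 0.05, -0.02 and 0.01 against no pulses. How much of the signal of either shared probe set came from the related copy was not tested. As a measure of RNA quality, the 3′ minus 5′ difference of the Gapdh control probe sets was 0.13 ± 0.06, 0.11 ± 0.04 and 0.20 ± 0.02 (SD) in nonpulsed, pulsed and blebbistatin cultures, and that of the hexokinase control probe sets 0.89 ± 0.03, 0.95 ± 0.11 and 0.92 ± 0.11.

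The other genes of the pathway, outside the 34, were read from the same fit. With pulses, 62% of all features were higher. At an unadjusted p under 0.05, 7.83% of all features were higher and 1.27% lower, to be set beside the counts below. Of 20 tested genes for other isoforms and steps, 10 were higher with pulses, 0 of them at an unadjusted p under 0.05, with a median of 0.03; 1 was lower at that threshold, the fructose transporter Slc2a5 (-0.52), and Slc16a7 had the next largest difference (-0.40). Of 13 accessory genes of glycogen metabolism, 10 were higher, 3 of them at that threshold, with a median of 0.06. The largest was Ppp1r3b, a subunit that directs protein phosphatase 1 to glycogen, at 0.96 ± 0.16 (SE), with 1.45, 0.88 and 0.56 in series 1, 2 and 3, followed by its relative Ppp1r3d at 0.43. Of 11 genes of the pentose phosphate and hexosamine branches, 5 were higher and 0 reached that threshold in either direction, with a median of -0.01, the largest being Pgm3 (-0.31) and Ogt (0.18). Of 18 regulators, 14 were higher, 5 of them at that threshold, led by Klf15 (0.76), a transcription factor known to raise Slc2a4, and the AMP-activated kinase subunit Prkaa2 (0.63). No gene of these lists passed after adjustment.

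Of all features, 61.4% were higher with blebbistatin than without pulses, 15.8% at an unadjusted p under 0.05, and 6.8% were lower at it. Against pulses these shares were 55.7%, 6.23% and 5.6%. With blebbistatin, 1 gene of these lists passed after adjustment. Ppp1r3b rose by 1.27 ± 0.18 (SE; limma, adjusted p = 0.0459) against nonpulsed cultures, with 1.17 and 1.12 within series 2 and 3, and differed by 0.30 against pulsed cultures. The accessory glycogen genes had a median of 0.35 against no pulses, with 11 of 13 higher and 5 at an unadjusted p under 0.05, and of 0.14 against pulses, with 10 of 13 higher and 2 at that threshold. After Ppp1r3b, the next largest against no pulses was Ppp1r3a (0.71), the muscle glycogen-targeting subunit, and against pulses Phkb (0.42) and Ppp1r3a (0.36) led. Among the regulators, Klf15 differed by 1.35 ± 0.30 (SE; adjusted p = 0.0876) and Epas1, a relative of Hif1a, by 0.84 against no pulses, and by 0.59 and 0.58 against pulses. Of the 18, 12 were higher in each of these comparisons, 6 and 2 of them at an unadjusted p under 0.05. The pentose phosphate and hexosamine genes had medians of 0.21 and 0.15 against no pulses and against pulses. In that list 8 and 9 of 11 were higher, 4 and 3 at the threshold, and 1 was lower at the threshold in each, Pgm3 (-0.72 and -0.41). The largest after it were Rpia (0.35) and Tkt (0.28). For other isoforms and steps the medians were 0.09 and 0.05, with 13 of 20 higher in each. Against no pulses 1 gene of that list was higher and 2 lower at the threshold, Gpd1 (0.66) and Pck2 (-0.50) being largest, and against pulses 0 were, with Pklr (0.45) and Slc16a7 (0.36) largest.

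Further lists were read from the same fit. Of all features, 62% were above 0 with pulses, 7.83% at an unadjusted p under 0.05. With blebbistatin the shares above 0 were 55.7% against pulses and 61.4% against no pulses. At that threshold, 6.23% were higher and 5.6% lower against pulses, and 15.8% and 6.8% against no pulses. Low oxygen response genes outside the 34 had a median difference of 0.32 with pulses, with 18 of 18 above 0 and 4 at an unadjusted p under 0.05, among them Adm (0.66); Bnip3 (0.64) was next. Their medians within series 1, 2 and 3 were 0.97, 0.12 and 0.05, so that series 1 stood out as it did for the glucose genes. The median log2 value of the list was 9.41, 9.46 and 9.47 on nonpulsed arrays, 10.53, 9.57, 9.57 and 9.87 on pulsed arrays, and 9.81, 9.54 and 9.89 with blebbistatin. With blebbistatin against pulses its median was -0.09, with 7 of 18 above 0. At that threshold 0 were higher and 2 lower, P4ha1 (-0.67) and Mxi1 (-0.37), while Car9 (-0.56), next to P4ha1 in size, did not reach it. Against no pulses the fitted median was 0.35, with 11 of 18 above 0. Yet the medians within series 2 and 3, the only ones with both groups, were -0.07 and 0.07. There 8 and 10 of 18 were higher, against 57.9% and 56% of all features. At that threshold 2 were higher and 1 lower, and Adm (0.81) and Pdk1 (0.58) had the largest differences. The part of this response in the values of the glucose genes was not tested.

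Cardiomyocyte markers had a median difference of 0.31 with pulses, equal to that of the glucose genes. Of these markers 10 of 10 were above 0, against 62% of all features, and their within-series medians were 0.81, 0.20 and 0.03. Their median log2 value was 12.48, 13.12 and 12.98 on nonpulsed arrays, 13.26, 13.27, 12.96 and 12.85 on pulsed arrays, and 12.98, 12.85 and 12.99 with blebbistatin. The corresponding medians of the 32 glucose genes were 9.72, 10.49 and 10.44, then 10.77, 10.78, 10.55 and 10.37, then 10.66, 10.83 and 10.82. In both lists the nonpulsed array of series 1 was the lowest of the 10. Markers of smooth muscle and pericytes were 0.15 lower in the median with pulses, and on that same array they were highest, at 10.65, against 7.88 to 9.59 on the other 9. With blebbistatin against pulses, 44.3% of all features were below 0. The median of the smooth muscle and pericyte markers was -0.66 there with 9 of 9 below 0, and that of fibroblast markers -0.29 with 9 of 10. Endothelial markers had a median of -0.30 with 5 of 5 below 0, and macrophage markers -0.23 with 7 of 7. Cardiomyocyte markers had a median of 0.01 there. With pulses the fibroblast, endothelial and macrophage medians were -0.02, 0.30 and 0.08. The erythroid, Schwann and neural, and skeletal muscle lists had medians of -0.01, -0.11 and 0.02 with pulses and -0.01, -0.12 and 0.07 with blebbistatin against pulses. The part of these cell types in the values of the glucose genes was not tested.

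**Figure D5:**
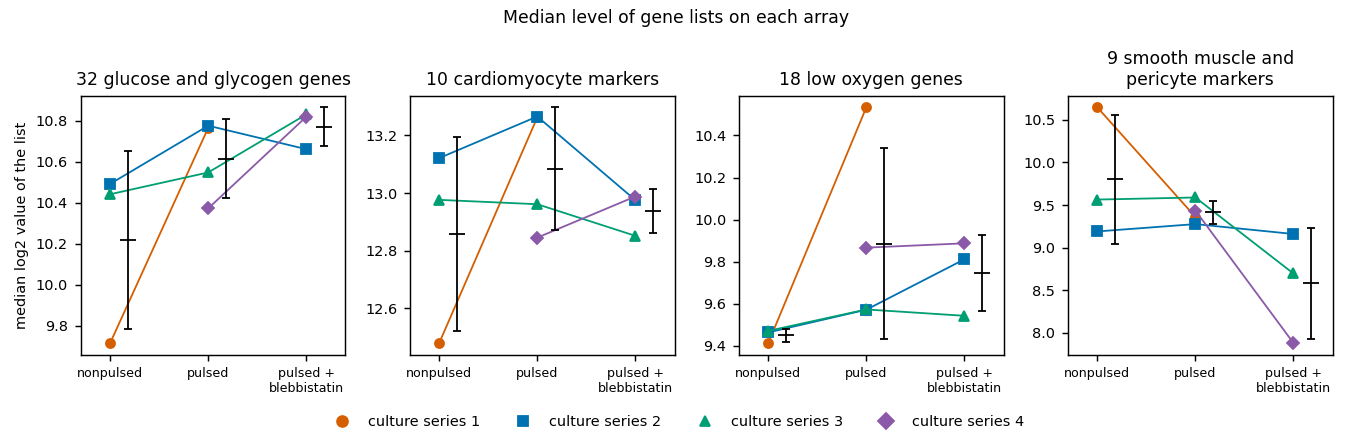
Median log2 value (y axis) of the 32 glucose genes, 10 cardiomyocyte markers, 18 low oxygen response genes and 9 smooth muscle and pericyte markers on each array by group (x axis); lines join the arrays of a culture series and black marks are the mean ± SD. On the nonpulsed array of series 1 the glucose genes (9.72) and cardiomyocyte markers (12.48) are lowest and the smooth muscle and pericyte markers (10.65) highest.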

How the data were processed

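Biotin-labelled RNA, extracted with Trizol per the labels' protocols, was hybridised to Affymetrix rat arrays. The authors deposited log2 values, 1 for each probe set on each array; the submitters' processing notes name PLIER and Affymetrix Expression Console 1.1. Neither the settings nor the log base is stated in the labels, and base 2 was read from the range of the values.

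Of 31099 probe sets, 57 controls and those in the lowest 25% of mean value (below 5.09) were left out, which kept 23281. The probe set with the highest mean stood for each symbol, giving 18393 features, 11846 of them named. The platform annotation gave 1 symbol to 20832 probe sets, several to 436 and none to 9831. Groups came from the labels, and culture series from the titles. The design text speaks of 3 arrays per treatment, and all 4 pulsed arrays were used. Differences were fitted with limma 3.58.1 in R 4.3.3 (two-sided, series as a fixed block, all 10 arrays, Benjamini-Hochberg over all features, threshold 0.05), so a fitted value also draws on the third group and can differ from the differences within series. Series pair the arrays: deviations from group means correlated at 0.347 to 0.640 in the 8 pairs of the same series and at -0.583 to 0.494 in 25 pairs of different series. The fit was also run on simulated data with independent noise and no series effect, unlike these arrays, and no result here rests on that run.

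Array values are given for the 6 genes with the largest absolute difference in each comparison and for isoform ratios that moved alike in every series; genes of other lists are the 2 largest. Other genes were named after their values were seen. The members and lists were chosen with earlier results of these data known. Alternatives covered the block, the samples fitted, scaling, filters, probe set choice, a trended prior, and leaving out each array or series (statmod 1.5.0 for the random block).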

Additional observations from a re-analysis of the deposited data

Results flagged for a closer look

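Among the 34 genes, 3 of 34 groups of 4 pulsed arrays held an array whose gap to its nearest neighbour, over the range of the group, exceeded the critical value of Dixon's test; chance alone is set to do so in about 5% of groups. Gpi was at 12.15 on the pulsed array of series 1, against 11.64 to 11.67 on the other 3 (gap over range 0.936). Aldoc was at 9.756 on the same array, against 7.568 to 7.84 (0.875). Pfkfb2 was at 6.15 on the pulsed array of series 2, against 6.833 to 6.923 (0.883).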

How the results depend on the processing

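The count of the 32 genes with an unadjusted p under 0.05 for pulsed against nonpulsed was 8; it was 5 with quantile normalization, 4 with median centring, 5 without a filter, 5 with the probe set of largest variance, and 2 to 9 when an array or series was left out (2 without series 1 or either of its arrays). No gene of the 32 passed in any alternative there or for blebbistatin against pulsed. The median of 0.31 stayed between 0.08 and 0.44 over all alternatives. For pulsed against nonpulsed, 1674 of 18393 features had an unadjusted p under 0.05. This was 1567 of 18390 with quantile normalization, 1554 with median centring and 2065 of 24433 without a filter. It was 1692 with the probe set of largest variance and 885 to 2098 with an array or series left out.

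For blebbistatin against pulsed, 3 features passed; 1 did without a replicate block, 7 with a random replicate block, 0 with only the groups or series compared, 0 without a filter, 6 with a stricter filter on dim probe sets, 8 with a trended prior, and 0 to 30 with an array or series left out (30 without series 1). The 2 genes at an unadjusted p under 0.05 became 6 with only the groups or series compared and 1 with quantile normalization, and 0 to 7 with an array or series left out. Features at that threshold numbered 2176 of 18393, then 2692, 2232 of 18390, and 1182 to 3130 in the same order. The median of 0.04 ranged from -0.041 (without series 4 or either of its arrays) to 0.10, and was -0.03 without pulsed replicate 3. Eno3 ranged from -0.057, without series 4 or either of its arrays, to 0.70.

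For blebbistatin against nonpulsed, 63 features passed; 30 did without a replicate block, 1020 with a random one, 2 with only the groups or series compared, 1 without a filter, 110 with every probe set, 163 with a trended prior, and 0 to 46 with an array or series left out. The count of 0 passing genes became 1 without the block, 3 with a random block (Pgam2, Pygm and Slc2a4) and 0 to 1 with an array or series left out (Pgam2 without series 1 or its arrays). The 10 at an unadjusted p under 0.05 ranged from 4 to 12 with an array or series left out, and were 14 with a random block. Features at that threshold numbered 4165 of 18393, 2680 to 3979 with an array or series left out, and 4771 with a random block. The median of 0.33 was 0.16 with only the groups or series compared and 0.19 (without series 1) to 0.52 with an array or series left out. Slc16a3 for pulsed against nonpulsed ranged from -0.28, without series 1 or either of its arrays, to 1.06, and the ratio of Pfkfb2 to Pfkfb3 -0.18 with averaged probe sets. The cause was not tested. The sign held under every alternative in 19, 17 and 21 of the 32 genes for the 3 comparisons in this order.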
